A study of Mus musculus with 11 samples.

Results

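The KPP-eGFP line is a clonal mouse pancreatic ductal adenocarcinoma line, derived from a primary tumour of a genetically engineered mouse and given a green fluorescent reporter on a PiggyBac vector. Its exome was sequenced in 3 libraries of cultured cells (1-B, 2 and 2-B) and in 5 STAMP tumours, which are small tumours seeded by laser microporation in the ear skin of male mice and biopsied 3 weeks after implantation. The study describes the sequenced material as pooled biopsies, the number of biopsies in each library is not given in the sources used here, and each library is called a tumour below. By immune phenotype, 2 of these were immune-inflamed (1-3 and 2-1), 2 immune-excluded (1-4 and 2-2) and 1 immune-desert (2-3), and spleen DNA of the wild-type host strain served as the matched normal. The members described here are the mutations that were heterozygous in frequency in the cultured cells and lay outside the chromosome segments in which dense variants were called. They were chosen by the measured culture values, as every variant whose mean variant allele frequency over the culture libraries that called it was 0.25 to 0.75. A stretch of chromosome 4 (left-out variants from position 86583085 to 103311578, GRCm38), the distal end of chromosome 6 (145138202 to 148425959), a stretch of chromosome 8 (77277172 to 92865030) and the genes Fbxo22 and Gm10800 were left out. This gave 42 variants in 42 genes, of 621 variants in 304 genes called in all.

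The variant allele frequency is the share of reads at a position that carry the variant. A mutation on 1 of 2 copies of a chromosome in every cell has a frequency near 0.5 in a pure sample, and host cells in a biopsy lower it in proportion to their DNA. The members' frequencies in a tumour are therefore read against each other and not as a share of tumour cells alone. A tumour line accumulates such mutations by chance along with the few that act on growth, and a clonal heterozygous set serves as a shared genetic label by which tumours seeded from 1 line can be compared. Separate cultures or mice are not named in the labels, so errors and p-values reflect only how these libraries differ, and that difference may be technical. Read depth was unknown, so no counting interval is given for a single frequency.

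The set is labelled clonal, and 39 of the 42 members were called in all 3 culture libraries. The other 3, in Olfr1111, Igfbp7 and Magel2, were called in culture library 1-B alone, at 0.250, 0.357 and 0.333, and in 0 of 5 tumours, so the calls of these members go against the label. The mean culture frequency of the 42 ran from 0.250 to 0.565 with a median of 0.450, and the SD between the 3 culture libraries had a median of 0.0473 over the 39. At the lower limit, Olfr1111 at 0.250 and Wnt11 at 0.294 lay just inside, and 4932438A13Rik at 0.179 was the nearest below. At the upper limit, Ccdc158 at 0.565 was the highest inside, and Hebp1 at 0.993 was the nearest above. No library pair of the culture had identical values for any member (0 of 39 in each pair), and the mean absolute difference between 2 culture libraries was 0.0682 to 0.0788.

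The members were protein-changing in most cases, with 37 missense changes, 1 frameshift (Gm3072) and 4 splice-region changes that were not missense. Of the missense changes, Arrb1 L334F and Hspbp1 L297R were also annotated as lying in a splice region. Of the 4 others, Tubb1, Dnmt1 and Meis3 were changed in an intron beside an exon and Taf1 in a synonymous codon. All 42 reference bases matched GRCm38, and the amino acids recomputed from the reference codons matched the deposited protein change in 38 of 38 single-base coding changes. None of the 42 (0) carried a polymorphism number, against 202 of 216 variants of the same culture frequency inside the segments that were left out (93.5%). The fraction in the spleen was 0 for 42 of 42, and also for 204 of the 216 segment variants. Calls were made against the spleen, so this does not set the members apart. Of the 293 calls of members, 257 were tier 1 and 36 were tier 2, the less strict level of the caller.

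Sequences are shown for 2 missense members in genes of the lists examined here and for 2 splice-region members, because the position of the change within the codon or beside the exon defines them. They are GRCm38 bases on the coding strand, with the changed codon in capitals, first as in the reference and then as altered. For the 2 introns the single changed base is in capitals. Arid1a lies on the minus strand at chr4:133685171-133685201 (c.4696G>A), and Tlr13 on the plus strand at chrX:106157985-106158015 (c.1342T>G). Tubb1 lies on the plus strand at chr2:174455636-174455666 (c.58-6C>G), and Dnmt1 on the minus strand at chr9:20907953-20907983 (c.4732-7C>T).
Arid1a reference: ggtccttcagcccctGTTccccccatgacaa
Arid1a V1566I: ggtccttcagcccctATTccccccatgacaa
Tlr13 reference: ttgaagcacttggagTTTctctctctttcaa
Tlr13 F448V: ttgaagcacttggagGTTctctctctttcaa
Tubb1 reference: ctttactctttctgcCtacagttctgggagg
Dnmt1 reference: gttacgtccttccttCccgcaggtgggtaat

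The frequencies are given below for each member, always for culture libraries 1-B, 2 and 2-B, then for immune-inflamed 1-3 and 2-1, immune-excluded 1-4 and 2-2 and immune-desert 2-3. Coding changes (c.) are numbered and written on the strand of the transcript. A member that was not called in a library has no value there, which does not show that the mutation was absent, because the depth was unknown.

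**Figure D1:**
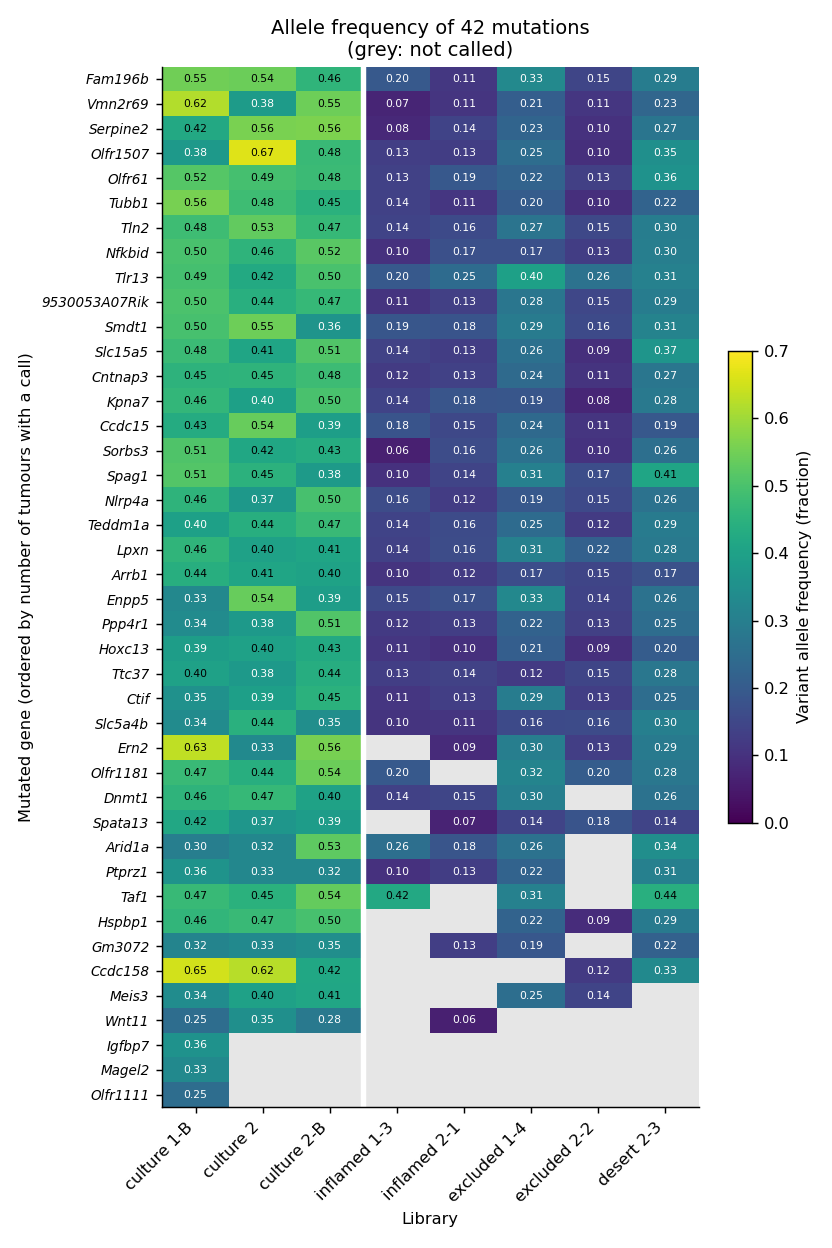
Variant allele frequency (fraction of reads, colour and number) of the 42 mutations in the 3 culture libraries and 5 tumours, with genes ordered by the number of tumours that called them and grey cells where no call was made. Values in culture lay between 0.250 and 0.667, and values in tumours between 0.0606 and 0.441.

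Genes of chromatin and transcription held 5 members. Arid1a (chromosome 4, position 133685186, c.4696G>A, exon 18 of 20) encodes a DNA-binding subunit of a SWI/SNF chromatin remodelling complex and is mutated in some pancreatic cancers. Its V1566I frequencies were 0.30, 0.324 and 0.526 in culture, 0.256 and 0.184 for immune-inflamed, 0.265 for immune-excluded 1-4 and 0.345 for immune-desert. The culture libraries of Arid1a spread widely, at 0.384 ± 0.124 (SD, n = 3), and the desert tumour reached above the lowest of them. Taf1 (chromosome X, position 101578202, c.4671T>A, exon 34 of 41) encodes the largest subunit of the general transcription factor TFIID. Its S1557S change, which alters no amino acid and lies at the edge of an exon, had 0.471, 0.448 and 0.536 in culture, 0.423 for immune-inflamed 1-3, 0.308 for immune-excluded 1-4 and 0.441 for immune-desert. Dnmt1 encodes the maintenance DNA methyltransferase, and its intron change (c.4732-7C>T) at position 20907968 of chromosome 9 lay 7 bases from the exon. It had 0.455, 0.470 and 0.404 in culture, 0.137 and 0.146 for immune-inflamed, 0.301 for immune-excluded 1-4 and 0.264 for immune-desert. Hoxc13 (chromosome 15, position 102927204, c.766C>G, exon 2 of 2) is a homeobox gene known for its role in hair. Its R256G change had 0.390, 0.40 and 0.426 in culture, 0.110 and 0.0975 for immune-inflamed, 0.209 and 0.0949 for immune-excluded and 0.204 for immune-desert, one of the narrower spreads in culture. Meis3 encodes a homeobox cofactor and carried a 2-base duplication in the intron after its exon (chromosome 7, position 16183867, c.944+2_944+3dupTG). It had 0.340, 0.40 and 0.414 in culture and 0.254 and 0.143 for immune-excluded. Both tumours with a call of Meis3 were immune-excluded, but with 2 calls in 5 tumours and no test of presence this is a description.

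Innate immune genes held 3 members. Tlr13 (chromosome X, position 106158000, c.1342T>G, exon 3 of 3) encodes the mouse receptor for bacterial ribosomal RNA. Its F448V frequencies were 0.494, 0.425 and 0.50 in culture, 0.196 and 0.246 for immune-inflamed, 0.398 and 0.264 for immune-excluded and 0.307 for immune-desert, and the highest tumour value was that of an immune-excluded tumour. Nfkbid (chromosome 7, position 30425582, c.275T>G, exon 5 of 11) encodes a nuclear regulator of NF-kappaB. Its L92R change had 0.50, 0.456 and 0.522 in culture, 0.101 and 0.170 for immune-inflamed, 0.171 and 0.126 for immune-excluded and 0.299 for immune-desert. Nlrp4a (chromosome 7, position 26450477, c.1508G>A, exon 4 of 11) belongs to the NLR family, and its G503D change had 0.456, 0.374 and 0.495 in culture, 0.162 and 0.123 for immune-inflamed, 0.191 and 0.154 for immune-excluded and 0.264 for immune-desert. The 31 bases around the Nlrp4a position occurred 8 times in the chromosomes of GRCm38, so reads of related genes may be shared there.

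Genes of signalling held 8 members. Arrb1 encodes beta-arrestin 1, an adaptor of G-protein-coupled receptors. The L334F change in exon 14 of 16 (chromosome 7, position 99598465) had 0.438, 0.411 and 0.405 in culture, 0.104 and 0.122 for immune-inflamed, 0.165 and 0.145 for immune-excluded and 0.174 for immune-desert, and its 5 tumour values lay close together, from 0.104 to 0.174. Ptprz1 encodes a receptor-type tyrosine phosphatase of the nervous system, and Q12R (chromosome 6, position 22875861) had 0.359, 0.325 and 0.324 in culture, 0.101 and 0.128 for immune-inflamed, 0.222 for immune-excluded 1-4 and 0.306 for immune-desert. Wnt11, a secreted Wnt ligand, had a member at the low end of the rule. Its L48V change (chromosome 7, position 98846432, c.142C>G, exon 4 of 7) had 0.250, 0.349 and 0.284 in culture and 0.0615 for immune-inflamed 2-1, so that 1 of 5 tumours called it. Serpine2 encodes a secreted inhibitor of serine proteases, and M122L (chromosome 1, position 79816851, c.364A>C, exon 3 of 9) had 0.422, 0.560 and 0.561 in culture, 0.0794 and 0.140 for immune-inflamed, 0.227 and 0.100 for immune-excluded and 0.271 for immune-desert. Its tumour values were below the median of the autosomal members, relative to culture, in 5 of 5 tumours, all divided by the same culture mean. Ppp4r1 encodes a regulatory subunit of protein phosphatase 4. The W839G change (chromosome 17, position 65837989, c.2515T>G, exon 18 of 20) had 0.337, 0.379 and 0.511 in culture, 0.118 and 0.131 for immune-inflamed, 0.221 and 0.133 for immune-excluded and 0.250 for immune-desert. Spata13 encodes an exchange factor for small GTPases, and L1042V (chromosome 14, position 60756224, c.3124C>G, exon 11 of 13) had 0.421, 0.367 and 0.386 in culture, 0.0702 for immune-inflamed 2-1, 0.143 and 0.182 for immune-excluded and 0.143 for immune-desert. Enpp5 belongs to the ectonucleotide phosphodiesterase family, with V91I (chromosome 17, position 44080952, c.271G>A, exon 2 of 4) at 0.327, 0.536 and 0.389 in culture, 0.154 and 0.170 for immune-inflamed, 0.326 and 0.141 for immune-excluded and 0.263 for immune-desert. Igfbp7 encodes a secreted binding protein of the insulin-like growth factor family. The C156F change (chromosome 5, position 77407548, c.467G>T, exon 1 of 6) was among the 3 found in culture library 1-B alone, and its 31 bases occurred at 2 places in GRCm38.

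Genes of adhesion, cytoskeleton and cilia held 6 members. Tln2 encodes talin 2, which links integrins to actin, and L859F (chromosome 9, position 67344125, c.2575C>T, exon 21 of 58) had 0.482, 0.533 and 0.469 in culture, 0.141 and 0.157 for immune-inflamed, 0.270 and 0.152 for immune-excluded and 0.296 for immune-desert. Lpxn encodes leupaxin, a focal adhesion protein. The L135V change (chromosome 19, position 12824028, c.403T>G, exon 5 of 9) had 0.458, 0.40 and 0.411 in culture, 0.137 and 0.162 for immune-inflamed, 0.308 and 0.216 for immune-excluded and 0.284 for immune-desert, above the autosomal median relative to culture in 5 of 5 tumours. Sorbs3 encodes vinexin, an adaptor at cell contacts, and R417S (chromosome 14, position 70191466, c.1249C>A, exon 13 of 21) had 0.506, 0.418 and 0.433 in culture, 0.0606 and 0.162 for immune-inflamed, 0.262 and 0.102 for immune-excluded and 0.256 for immune-desert. Cntnap3 belongs to the contactin-associated cell adhesion molecules. The L1131V change (chromosome 13, position 64745766, c.3391T>G, exon 21 of 24) had 0.454, 0.454 and 0.479 in culture, 0.122 and 0.135 for immune-inflamed, 0.242 and 0.106 for immune-excluded and 0.274 for immune-desert, with a narrow spread in culture (SD 0.0148). Tubb1 encodes a beta-tubulin known from platelets. The change in its intron, 6 bases from the exon (chromosome 2, position 174455651, c.58-6C>G), had 0.556, 0.482 and 0.448 in culture, 0.136 and 0.109 for immune-inflamed, 0.205 and 0.0955 for immune-excluded and 0.224 for immune-desert, below the autosomal median in 5 of 5 tumours. Spag1 encodes an assembly factor of ciliary dynein arms, and Q254K (chromosome 15, position 36195422, c.760C>A, exon 8 of 19) had 0.512, 0.449 and 0.383 in culture, 0.100 and 0.143 for immune-inflamed, 0.306 and 0.167 for immune-excluded and 0.412 for immune-desert. The desert tumour had the highest Spag1 value, above culture library 2-B.

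Genes of transport, protein folding and RNA handling held 8 members. Smdt1 encodes a small subunit of the mitochondrial calcium uniporter. The P35A change (chromosome 15, position 82346186, C>G in the transcript, exon 1 of 3) had 0.496, 0.546 and 0.361 in culture, 0.188 and 0.183 for immune-inflamed, 0.292 and 0.156 for immune-excluded and 0.314 for immune-desert. Kpna7 encodes an importin alpha, and I326L (chromosome 5, position 144994058, c.976A>T, exon 10 of 14) had 0.464, 0.398 and 0.50 in culture, 0.141 and 0.185 for immune-inflamed, 0.187 and 0.0759 for immune-excluded and 0.282 for immune-desert. The 2 solute carriers were Slc15a5, of a peptide transporter family, and Slc5a4b, of the sodium and glucose cotransporter family. T314M in Slc15a5 (chromosome 6, position 138043393, c.941C>T, exon 4 of 9) had 0.478, 0.410 and 0.510 in culture, 0.139 and 0.127 for immune-inflamed, 0.258 and 0.0947 for immune-excluded and 0.366 for immune-desert. V346I in Slc5a4b (chromosome 10, position 76072521, c.1036G>A, exon 10 of 15) had 0.339, 0.443 and 0.345 in culture, 0.105 and 0.107 for immune-inflamed, 0.158 and 0.159 for immune-excluded and 0.301 for immune-desert, and its 31 bases with the altered base occurred at 1 other place in GRCm38. Hspbp1 encodes a cofactor that releases nucleotide from HSP70 chaperones. The L297R change (chromosome 7, position 4663490, c.890T>G, exon 7 of 8) had 0.460, 0.473 and 0.495 in culture, 0.222 and 0.0897 for immune-excluded and 0.288 for immune-desert. Neither immune-inflamed tumour called it, and these tumours gave no call for 10 (1-3) and 8 (2-1) of the 42 members. Ern2 encodes the epithelial form of the endoplasmic reticulum stress sensor IRE1. L209F (chromosome 7, position 122179995, exon 8 of 22) had 0.633, 0.333 and 0.556 in culture, 0.0862 for immune-inflamed 2-1, 0.299 and 0.130 for immune-excluded and 0.286 for immune-desert, and its culture libraries spread the most of the 39, at 0.507 ± 0.156 (SD, n = 3). Ttc37 encodes a subunit of the SKI complex, which feeds RNA to the exosome, and V1049L (chromosome 13, position 76147764, c.3145G>T, exon 32 of 44) had 0.40, 0.377 and 0.436 in culture, 0.129 and 0.138 for immune-inflamed, 0.118 and 0.146 for immune-excluded and 0.278 for immune-desert. Ctif encodes a translation factor that works with the nuclear cap-binding complex, and S74C (chromosome 18, position 75624260, c.221C>G, exon 3 of 12) had 0.355, 0.394 and 0.446 in culture, 0.112 and 0.129 for immune-inflamed, 0.294 and 0.129 for immune-excluded and 0.251 for immune-desert.

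Chemosensory receptors, which sense odours and pheromones and are seldom expressed outside sensory tissue, held 5 members. Olfr61 N196T (chromosome 7, position 140638289, c.587A>C) had 0.516, 0.494 and 0.478 in culture, 0.135 and 0.194 for immune-inflamed, 0.222 and 0.133 for immune-excluded and 0.357 for immune-desert. Olfr1507 F116I (chromosome 14, position 52490617, c.346T>A) had 0.375, 0.667 and 0.475 in culture, 0.130 and 0.128 for immune-inflamed, 0.250 and 0.0952 for immune-excluded and 0.349 for immune-desert, with the highest value of any member in a library, 0.667 in culture 2, and its 31 bases occurred at 2 places. Vmn2r69 L452V (chromosome 7, position 85410346, c.1354T>G) had 0.619, 0.385 and 0.545 in culture, 0.0727 and 0.108 for immune-inflamed, 0.209 and 0.111 for immune-excluded and 0.231 for immune-desert, below the autosomal median in 5 of 5 tumours. The change N289T in Olfr1181 (chromosome 2, position 88423158, c.866A>C) was called in 4 tumours at 0.196 to 0.316, against 0.438 to 0.542 in culture. S151T in Olfr1111 (chromosome 2, position 87150208, c.452G>C) was the call at 0.250 in culture library 1-B alone.

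The other 7 members were in genes of narrow or little described function. Fam196b E476G (chromosome 11, position 34419724, c.1427A>G) had 0.548, 0.543 and 0.459 in culture, 0.197 and 0.113 for immune-inflamed, 0.330 and 0.146 for immune-excluded and 0.295 for immune-desert. Teddm1a F104V (chromosome 1, position 153892101, c.310T>G) had 0.398, 0.439 and 0.474 in culture, 0.142 and 0.159 for immune-inflamed, 0.246 and 0.122 for immune-excluded and 0.290 for immune-desert. Both were called in every library, and the immune-excluded tumour 1-4 or the desert tumour was highest. The P1624H change of 9530053A07Rik (chromosome 7, position 28154483, c.4871C>A) had 0.502, 0.440 and 0.469 in culture, 0.106 and 0.132 for immune-inflamed, 0.275 and 0.15 for immune-excluded and 0.294 for immune-desert. Ccdc15 Q563H (chromosome 9, position 37313395, c.1689A>C) had 0.431, 0.537 and 0.393 in culture, 0.182 and 0.152 for immune-inflamed, 0.239 and 0.107 for immune-excluded and 0.193 for immune-desert. Both positions lie in 31 bases that occurred at 2 places in GRCm38, as did that of Gm3072. The frameshift of Gm3072, E56fs (chromosome 14, position 41623652, c.166delG), is the 1 member that shifts the reading frame. It had 0.317, 0.333 and 0.346 in culture, 0.130 for immune-inflamed 2-1, 0.191 for immune-excluded 1-4 and 0.216 for immune-desert, and its SD in culture of 0.0146 was the smallest of the 39. Ccdc158 K1013T (chromosome 5, position 92612552, c.3038A>C) had the highest mean in culture and few calls in tumours, with 0.652, 0.625 and 0.417 in culture, 0.119 for immune-excluded 2-2 and 0.333 for immune-desert. Magel2, an imprinted gene of the melanoma antigen family, carried P614Q (chromosome 7, position 62379190, c.1841C>A) at 0.333 in culture library 1-B alone.

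Across all members, 173 of 210 possible calls were made in the tumours. The tumours called 32 and 34 members (immune-inflamed), 37 and 33 (immune-excluded) and 37 (immune-desert). As shares of 42 these were 76.2% (Wilson 95% interval 61.5 to 87) and 81.0% (66.7 to 90.0), 88.1% (75 to 94.8) and 78.6% (64.1 to 88.3), and 88.1% (75 to 94.8). Intervals here and below cover counting error only. Of the 151 variants of like culture frequency in the chromosome 8 segment, the same tumours called 77.5% and 82.1%, 88.7% and 81.5%, and 93.4%, each within the interval of the members. In number of tumours, 27 members were called in 5, 6 in 4, 3 in 3, 2 in 2, 1 in 1 and 3 in 0. Low-frequency calls outside the segments, with mean culture frequency of at most 0.179, were called less widely, since 133 of 163 were called in no tumour. Their median in culture was 0.0669, and the lowest frequencies called in the tumours were 0.0248 to 0.0388. A missing call there does not show absence.

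The members were less frequent in the tumours than in culture, which is given as a description because the culture values chose them. Of the 173 tumour values, 171 were below every culture library of the same member, and the 2 that were not were Spag1 and Arid1a in the desert tumour. Median ratios to the mean in culture were taken over the members, or segment variants, that each tumour called. The sets thus differ between tumours, and any frequency too low to be called is left out. The median ratio of the members was 0.294 and 0.319 for immune-inflamed, 0.554 and 0.283 for immune-excluded and 0.611 for immune-desert. The medians of the chromosome 8 segment were 0.243 and 0.310, 0.495 and 0.289, and 0.622. The order of the tumours was thus the same in both sets for the highest 2, desert and then immune-excluded 1-4, and the immune-excluded tumour 2-2 lay beside the immune-inflamed pair rather than beside the other immune-excluded tumour. Among the 27 members called in 5 of 5 tumours, the desert tumour had the highest frequency for 19 and immune-excluded 1-4 for 8, and these were the top pair for 25. The share of host cells in each biopsy was not measured here, so fewer tumour cells and a lower share of mutated cells cannot be told apart.

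**Figure D2:**
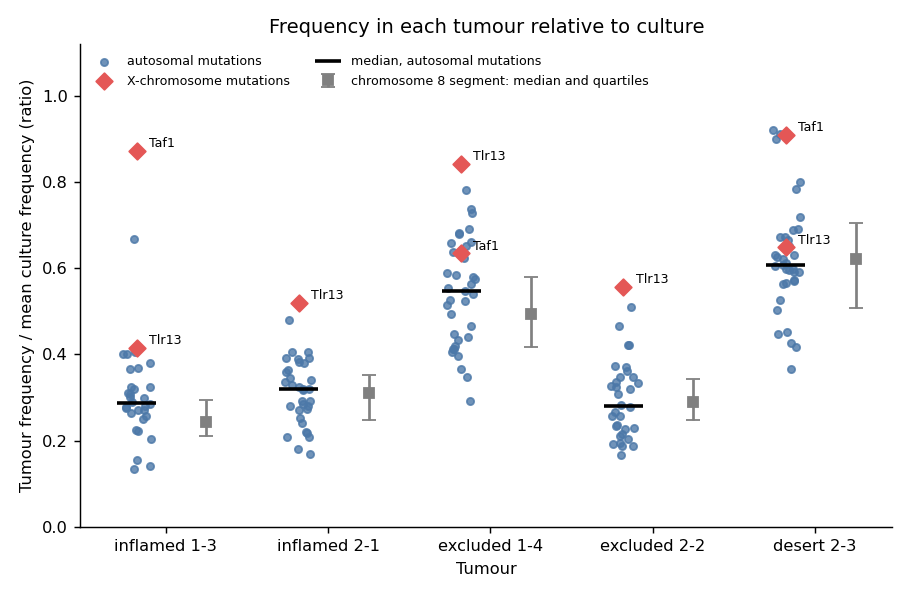
Ratio of tumour to mean culture frequency for each member in each tumour (points, autosomal; diamonds, chromosome X), the median of the autosomal members (bars) and the median and quartiles of the chromosome 8 segment (squares). The autosomal medians run from 0.281 to 0.607, and the diamonds lie above the bar in 8 of 8 values.

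Of the 27 members called in 5 of 5 tumours, 4 were above the tumour's autosomal median in each (Smdt1, Enpp5, Lpxn and Tlr13). Another 5 were below it in each (Serpine2, Cntnap3, Hoxc13, Tubb1 and Vmn2r69). No like count over the other variants is given here, so these counts do not set the members apart. The 5 ratios of a member share 1 culture mean, so an error in that mean moves all 5 the same way. They are not 5 separate observations. The members on chromosome X stood high relative to the others. Taf1 and Tlr13 gave 8 tumour values, and 8 of 8 were above the autosomal median of the same tumour, by 1.07 to 3.04 times. These come from 2 variants, and Taf1 gave no value in immune-inflamed 2-1 or immune-excluded 2-2, where it was not called. Tlr13 had ratios to culture of 0.415 and 0.520 for immune-inflamed, 0.842 and 0.557 for immune-excluded and 0.648 for immune-desert, and it ranked first of all members in 3 of them. Taf1 had 0.873, 0.635 and 0.910 in the 3 tumours that called it, ranking first in the immune-inflamed tumour 1-3. In culture both stood near 0.5, at 0.473 ± 0.0420 for Tlr13 and 0.485 ± 0.0454 for Taf1 (SD, n = 3), within the range of the autosomal members. The hosts were male and carry 1 X chromosome, and its part in these values was not tested. Among autosomal members, Arid1a stood out in the same direction, with ratios of 0.669 and 0.480, 0.690 and 0.899 in the 4 tumours that called it, each above the autosomal median by 1.26 to 2.33 times. The mean of Arid1a in culture rested on libraries that differed from 0.30 to 0.526.

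Whether members present throughout differed in frequency between immune phenotypes was tested with limma on frequencies scaled by each tumour's median ratio to culture, over the 258 variants called in all 8 libraries. Members missing from a library, such as Meis3, Hspbp1, Wnt11 and Ccdc158, could not enter, so the fit does not address which phenotypes carried a member. Of the 258 variants behind the scaling, 226 lay in the left-out segments. The scaling factors were 0.246 and 0.295 for the immune-inflamed, 0.477 and 0.278 for the immune-excluded and 0.627 for the desert tumour. Of the members, 27 entered the fit. Between immune-inflamed and immune-excluded tumours 0% of the 258 variants passed an adjusted p of 0.05, and 0 of 27 members did. At an unadjusted limma p under 0.05 there were 10 variants (3.88%) and 1 member (3.70%). The scaled differences of the 27 ran from -0.175 to 0.266 with a median of -0.00144, beside a median of -0.00556 over all 258, and 13 were positive and 14 negative. Their standard errors were 0.0598 to 0.143, with 2 tumours a group. Even the largest difference, 0.266, did not pass, so the fit does not show that the members were alike in the 2 phenotypes.

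The largest of these differences was in Kpna7 I326L. Its scaled frequencies were 0.573 and 0.625 in the immune-inflamed pair, 0.392 and 0.273 in the immune-excluded pair and 0.450 in the desert tumour. The difference of 0.266 (standard error 0.0772) had a limma p of 0.0108 and an adjusted p of 0.817. In the opposite direction Spag1 Q254K had scaled values of 0.407 and 0.484 in the immune-inflamed pair and 0.641 and 0.600 in the immune-excluded pair, a difference of -0.175 (standard error 0.0799, limma adjusted p = 0.817). These are 2 of 27 members at the extremes of the list, and neither passed the test.

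The desert tumour was a single library, so the fit gave it the spread of the other phenotypes, and its p-values rest on that assumption. Set against the average of the 2 other phenotypes, 0% of 258 variants and 0 of 27 members passed the adjusted p of 0.05. At an unadjusted limma p under 0.05 there were again 10 variants and 1 member. After scaling, 19 of 27 members were lower in the desert tumour, and the like count over the 258 is not given here. The scaled differences of the members ran from -0.365 to 0.124 with a median of -0.0542, against -0.000845 over all 258. The 1 member was Tlr13 F448V, with scaled values of 0.797, 0.832, 0.835 and 0.948 in the other tumours and 0.489 in the desert tumour. Its difference of -0.365 (standard error 0.109) had a limma p of 0.0126 and an adjusted p of 0.986. Unscaled, the difference was 0.0307. Leaving out the scaling raises the desert tumour, which had the highest factor, relative to the others. Of the 258 variants behind the factors, 226 lay in the left-out autosomal segments. Whether this moved the differences of the members as a set was not tested. Tlr13 lies on chromosome X, and whether the factors fit a member there was not tested, so its difference depends on the scaling.

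**Figure D3:**
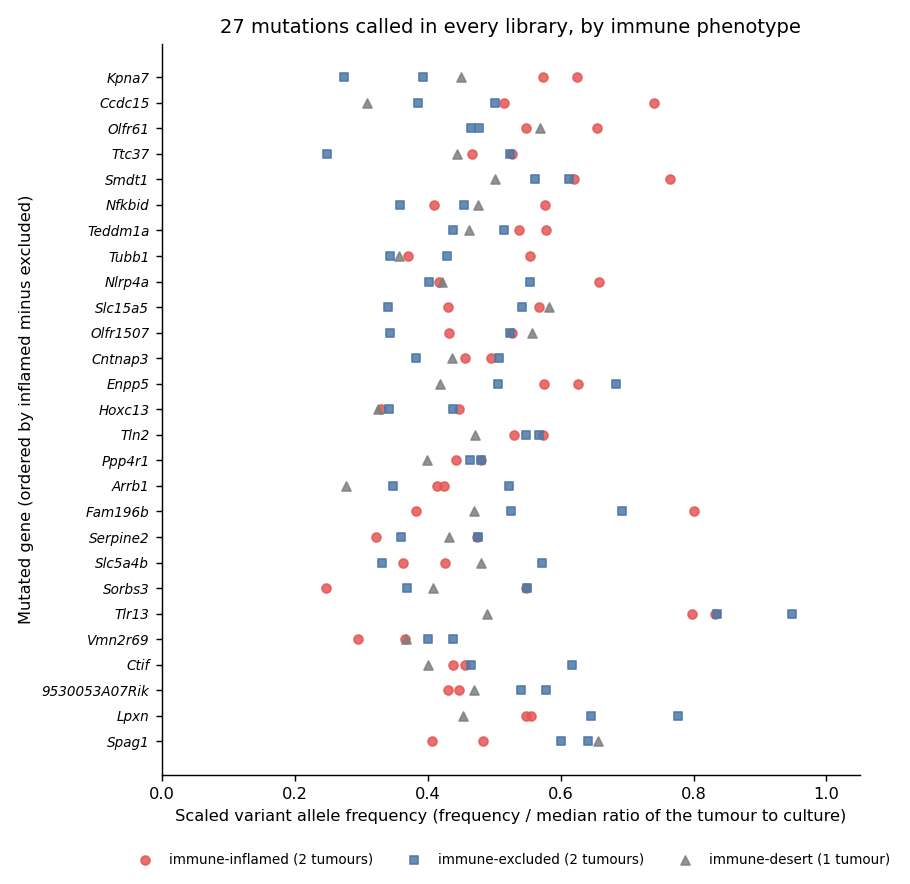
Scaled variant allele frequency (frequency divided by the tumour's median ratio to culture, x axis) of the 27 members called in every library, for immune-inflamed (circles), immune-excluded (squares) and immune-desert (triangles) tumours, ordered by the immune-inflamed minus immune-excluded difference. Kpna7 is at the top with a difference of 0.266 and Spag1 at the bottom with -0.175, and no member passed the adjusted p.

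The base changes of the members differed in make-up from the variants inside the segments. Written on the strand with the pyrimidine, the 40 single-base members comprised 13 T>G, 9 C>T, 7 C>G, 6 C>A, 3 T>A and 2 T>C changes. T>G thus made up 32.5% (Wilson 95% interval 20.1 to 48.0), against 6.93% (4.17 to 11.3) of the 202 single-base variants of the same culture frequency inside the segments. Transitions, which are changes between C and T, made up 27.5% (16.1 to 42.8) of the members and 64.9% (58.0 to 71.1) of the segment variants. The low-frequency calls outside the segments had 31.6% T>G (24.9 to 39.3), near the share of the members, but 24.7% T>C where the members had 5.00%. With the members in shared 31-base stretches left out, T>G made up 12 of 34 (35.3%). These shares were compared by their intervals with no test, and the culture frequency that chose the members does not use the base.

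**Figure D4:**
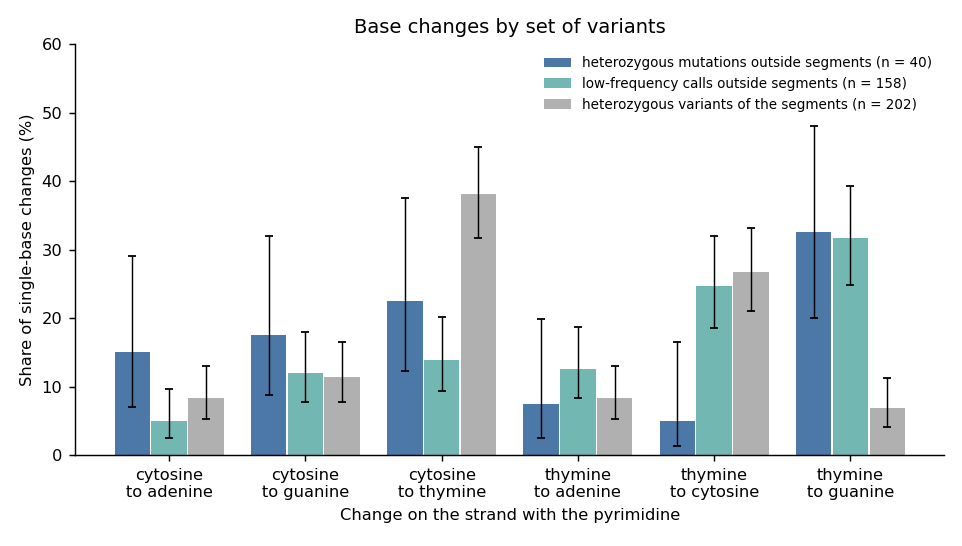
Share of each kind of single-base change (percent, with Wilson 95% intervals) among the 40 single-base members, 158 low-frequency calls outside the segments and 202 heterozygous variants of the segments. Thymine-to-guanine changes make up 32.5%, 31.6% and 6.93% of the 3 sets.

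The T>G members shared a sequence context. Of the 13, 11 had a T on the 3′ side (84.6%), where such a neighbour follows 24.9% of all T bases in coding sequence of GRCm38 counted on both strands. CTT was the context of 6 (46.2%), against 8.27% of coding T bases, and ATT that of 3 (23.1% against 4.77%), in Olfr1181, Olfr61 and Serpine2. The other T>G members were in ATG (Ppp4r1), CTG (Nfkbid), GTT (Tlr13) and TTT (Vmn2r69), 1 each. The 6 members with CTT changed 6 unrelated genes on 6 chromosomes. Their sequences are shown because the shared 3 bases, in capitals with the changed T in the middle, carry this observation. They are 21 bases of GRCm38 on the strand with the pyrimidine. Teddm1a is at chr1:153892091-153892111 (plus), Cntnap3 at chr13:64745756-64745776 (minus), Lpxn at chr19:12824018-12824038 (plus), Ccdc158 at chr5:92612542-92612562 (plus), Hspbp1 at chr7:4663480-4663500 (minus) and Ccdc15 at chr9:37313385-37313405 (plus).
Teddm1a: caccatgttCTTccttctcac
Cntnap3: gcaagtcatCTTgtcctcagg
Lpxn: gctgggggaCTTggaacagga
Ccdc158: cggagacttCTTaggagaaga
Hspbp1: tcccatagcCTTgtgacagat
Ccdc15: taaggaagaCTTggtcctgga

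The same neighbour was frequent among the 50 T>G calls at low frequency outside the segments, of which 35 (70.0%) had a T on the 3′ side and 20 (40%) were in CTT. Among the 14 T>G variants inside the segments, 5 (35.7%) had a T on that side and 2 were in CTT. All 13 T>G members were called in each of the 3 culture libraries, as were 37 of the 40 single-base members.

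In protein terms the 37 missense members comprised 26 kinds of exchange. L to V was the commonest with 5 (Cntnap3, Lpxn, Spata13, Vmn2r69 and Wnt11), followed by L to F with 3 (Arrb1, Ern2 and Tln2) and V to I with 3 (Arid1a, Enpp5 and Slc5a4b). By the BLOSUM62 matrix, which scores how often residues replace each other in related proteins, 16 of 37 exchanges scored below 0. W to G in Ppp4r1, R to G in Hoxc13 and L to R in Hspbp1 and Nfkbid were among the lowest, at -2. The V to I change in Arid1a had the highest score, 3, along with those of Enpp5 and Slc5a4b. No score of this kind was measured in these cells.

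Members lay on 16 chromosomes, and chromosome 7 held 11 of 42 (26.2%, Wilson 95% interval 15.3 to 41.1), beside 8.70% of coding bases. The low-frequency calls outside the segments had 6.13% of their variants there. From Hspbp1 to Olfr61 these members were spread along the chromosome, and their median frequency in culture was 0.471, beside 0.450 for all members. Chromosomes 3, 8, 12 and 16 held 0 members, chromosome 8 having lost its segment by the rule. No test of this was made, since the pattern was seen in these values.

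Of the gene lists examined, few genes carried a member. Among 25 SWI/SNF subunits and 27 pancreatic cancer genes the 1 gene was Arid1a in both. Among 24 sensors of nucleic acids and bacterial patterns it was Tlr13. Of 20 antigen presentation genes and 16 centrosome and spindle genes, 0 carried a member.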

How the data were processed

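The exomes of 3 culture libraries and 5 STAMP tumours of KPP-eGFP cells were analysed, and 3 spleen libraries had no calls of their own. The authors mapped 2 × 75 bp reads to GRCm38 with BWA, processed them by GATK best practices and called variants with Strelka against the spleen, restricting tumour calls to variants found in the cell line. Tool versions: not given in the sources used here. For each call the authors deposited a fraction, the variant allele frequency, with the same in spleen reads, and a score of 1 or 2 for the tier. Such a restriction and the caller's thresholds set which tumour calls can appear. Of 11 columns per sample, 7 were not used, of which 2 hold values. Depth values numbered 0 in 3265 calls.

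The members and the gene lists were chosen with earlier results of these data known. Every member gene is accounted for. Some items, among them the coding changes of 3 members and 1 gene of the lists, are not reported here. The full values are given for protein-changing members called in 5 of 5 tumours, for frameshift and splice-region members, for members called in 0 to 2 tumours and for members of the gene lists, and others are given by range or in full. Frequencies were scaled per tumour by the median ratio to the mean of the culture over 258 variants called in all 8 libraries. They were compared with limma 3.58.1 (lmFit and eBayes with trend, R 4.3.3) over the 5 tumours alone. Benjamini-Hochberg adjustment was over the 258, with an adjusted p under 0.05 as threshold. The fit was also run on simulated frequencies at an assumed read depth. That outcome is not reported here and lends no weight to the 0 calls. Contexts were read from the RefSeq copy of GRCm38 and gene models from GENCODE M21, and 31-base windows were counted on the chromosomes in both strands. Shares carry Wilson 95% intervals (scipy 1.17.1). Alternatives were log2 values, culture as a further group, no scaling, scaling by the chromosome 8 segment, single-base changes, tier 1 calls, other limits and culture sets, unique contexts, leaving out each library and a replicate block. Python 3.11, numpy 2.4.6, pandas 2.3.3, numba 0.67.0, biopython 1.88 and matplotlib 3.10.9 were used.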

Additional observations from a re-analysis of the deposited data

How the results depend on the processing

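Between immune-inflamed and immune-excluded tumours, 0 variants passed the limma threshold under all alternatives run. For the desert tumour, 20 variants passed without scaling, none (0) of them a member, and 0 passed under the other alternatives. The replicate block, on the first number of the tumour titles, which the labels do not explain, gave 0 calls in both comparisons. Leaving out each tumour in turn gave 0 calls between immune-inflamed and immune-excluded, and leaving out each of the other 4 gave 0 for the desert tumour, which has no other library. The Kpna7 difference was positive under all alternatives run. The Tlr13 difference in the desert tumour was negative in all scaled fits that gave it a value and 0.0307 unscaled. The scaling factor of that tumour was 0.627, against 0.246 to 0.477 in the others, and whether it fits a member on chromosome X was not tested. The number of members was 39 to 42 and the calls per tumour stayed within 1.5 times. The median ratio to culture moved by more than its spread over culture libraries with tier 1 calls only, to 0.301 in the immune-inflamed tumour 1-3 and 0.625 in the desert tumour. Leaving out each culture library gave 0.310 to 0.321 for immune-inflamed 2-1, 0.290 to 0.292 for immune-excluded 2-2 and 0.611 to 0.624 for the desert tumour. The causes were not tested. T>G changes were 12 of 34 with unique contexts. Unknown depth limits all single frequencies.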
